A study of Homo sapiens with 6 samples.

Results

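The genes described here are 9 members of the NOTCH signalling pathway, taken by name from the 57905 genes counted in RNA of the human multiple myeloma cell line H929 (NCI-H929, an established line). They are the receptors NOTCH1, NOTCH2, NOTCH3 and NOTCH4, the ligands JAG1 and JAG2, the DNA-binding factor RBPJ with its coactivator MAML1, and the target gene HES1. The identifiers in the count files were matched to symbols with a gene annotation, and all 9 were found. In the study, 5 µg of total H929 RNA was kept in a buffer of HEPES, NaCl, DTT and ATP at 37 °C for an incubation of 1 hour, and heating to 95 °C for 5 minutes stopped the reaction. The IRE1-treated group had 2 µg of recombinant human IRE1 (residues 467 to 977, the cytoplasmic kinase and RNase part) in the tube, and the control group had the same buffer without the protein. Each group held 3 libraries, which the series describes as biological replicates of the line. Poly(A)-containing RNA was purified after the reaction and sequenced from a stranded library, and reads were counted over whole genes. The comparison asks which RNAs lose reads when IRE1, the stress sensor that cuts XBP1 RNA at the endoplasmic reticulum, acts on RNA in a tube. A whole-gene count sums reads on both sides of any cut, so the place of a loss within a transcript cannot be read from these values.

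NOTCH receptors are single-pass membrane proteins that are cut by furin on their way to the surface and are activated by ligands of the Jagged and Delta-like families on a neighbouring cell. Ligand pulling exposes the receptor to ADAM proteases and then to gamma-secretase, which frees the intracellular domain. In the nucleus this domain joins RBPJ and a Mastermind-like coactivator and switches on repressors of the HES and HEY families. In multiple myeloma, a cancer of plasma cells, NOTCH receptors and Jagged ligands on the tumour cells are known for signalling among the tumour cells and with the bone marrow stroma.

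The depth of the libraries was similar between groups. The control libraries held 25678499, 22433916 and 21144515 counts on genes, and the IRE1-treated libraries held 19615715, 21525644 and 23041598. Of 24945 genes with a count in any library, 14398 passed the filter on low counts and were tested. NOTCH3 was the only one of the 9 genes that did not pass. The IRE1-treated libraries did not stand equally far from the controls. The chi-square per gene between an IRE1-treated library and a control ran from 22.9 to 29.6 for replicate 1, from 12.3 to 16.8 for replicate 2 and from 8.04 to 10.2 for replicate 3, against 2.21 to 3.08 between controls.

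The RNA carried the markers of the labelled cell type. The 9 plasma cell markers summed to 251000 to 256000 normalized counts in the control libraries and to 251000 to 268000 in the IRE1-treated libraries (counts scaled to the mean effective library size), with JCHAIN, the joining chain of secreted immunoglobulin, the most abundant at 82695 to 96975. SDC1, the plasma cell surface proteoglycan CD138, had 23598 to 25705 normalized counts. The markers were not equally abundant. CD38 was the lowest of the 9, with 499 to 562 normalized counts in the controls and 489.5 to 519.6 after IRE1, fewer than the T cell marker CD3E below. By the edgeR test described below, 1 of the 9 was lower after IRE1 (PRDM1) and 2 were higher (TNFRSF17 and MZB1), beside 12.4% of all tested genes lower and 10.3% higher. With the trends on transcript length and GC removed, TNFRSF17 lost its call (0.25 to 0.085 on the log2 scale, edgeR adjusted p = 0.152, 2.57e-06 to 0.266 over all alternatives), while PRDM1 was at -0.15 and MZB1 at 0.20, both past the threshold. IRF4, named after its values were seen, and XBP1 were also called lower with library size scaling (-0.18 and -0.17). The same held without IRE1-treated replicate 1 (-0.10 and -0.11). With the trends removed XBP1 was called lower (-0.16), while IRF4 was at 5.1e-05 (edgeR adjusted p = 0.999). The 5 B cell markers together had 71.0 to 83.6 normalized counts, with MS4A1 at 0 in 5 of 6 libraries. The 5 myeloid markers summed to 23.3 to 43.9, most of it CSF1R, and the 5 bone marrow stroma markers to 9.2 to 9.6 in the controls and 14.9 to 20.4 after IRE1, with COL1A1 the most abundant at 4.8 to 7.6 and 8.5 to 14.4. The stroma sums did not overlap between groups, but none of these genes passed the count filter, and their part in the results was not tested. The 4 endothelial markers with values reached 1.0 at most, and CDH5, KDR and VWF were at 0 counts in all 6 libraries. Among the 4 T cell markers with values, CD3E stood at 899 to 942 normalized counts in the controls and at 948 to 1179 after IRE1. CD3E was not called (log2 fold change 0.16, edgeR adjusted p = 0.132), but it was called higher without IRE1-treated replicate 3 (0.21). CD3D, CD3G and CD2 were each between 0 and 6.8. Stroma and endothelium are the usual neighbours that present NOTCH ligands in bone marrow. Whether RNA of such cells added to the ligand levels below was not tested.

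In control RNA MAML1 and JAG2 had the highest levels per length of annotated exon and NOTCH3 the lowest. Levels are given as RPKM, counts per kilobase of annotated exon scaled to the effective depth of the library, which allows genes of different length to be compared. MAML1 came first with RPKM values of 8.14, 7.99 and 7.84 in the 3 control libraries (mean 7.99 ± 0.150 SD, n = 3). JAG2 followed at 4.83 ± 0.0421 (SD, n = 3). RBPJ at 3.45 ± 0.209 and HES1 at 3.34 ± 0.366 (SD, n = 3) overlapped across the control libraries, so their order was not resolved. NOTCH1 came next with 2.32, 2.26 and 2.33 (mean 2.30 ± 0.0372 SD, n = 3), and NOTCH2 had 1.49, 1.46 and 1.41 (mean 1.46 ± 0.0414 SD, n = 3). JAG1 had a mean of 1.16 ± 0.0111 (SD, n = 3). The last places were held by NOTCH4 with RPKM values of 0.199, 0.182 and 0.0806 and by NOTCH3 with 0.0606, 0.0322 and 0.0639. Apart from RBPJ and HES1, no neighbours in this order overlapped over the 3 controls. The place of RBPJ depends on the length used: its annotated exons span 15311 bases but its longest transcript has 5761, and per longest transcript it came first at 9.18 RPKM. In bulk RNA, a low level in every cell and a higher level in few cells cannot be told apart.

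NOTCH1 thus carried the largest share of the receptor RNA per length in each of the 6 libraries. It made up 56.9%, 57.4% and 60.0% of the summed RPKM of the 4 receptors in the control libraries and 58.7%, 55.7% and 54.8% in the IRE1-treated libraries. NOTCH2 took 36.3% to 37.2% in the controls and 33.0% to 37.9% after IRE1, and NOTCH3 0.8% to 1.6% and 0.5% to 1.6%. NOTCH4 took 4.9%, 4.6% and 2.1% in the controls and 6.7%, 6.6% and 6.2% after IRE1. The summed receptor RPKM itself was 4.07, 3.94 and 3.89 in the controls and 2.88, 3.03 and 2.91 in the IRE1-treated libraries, so the groups did not overlap in the sum. They did not overlap in the share of NOTCH4 either, although the RPKM of NOTCH4 itself overlapped, and they overlapped in the shares of the other receptors. The median RPKM of the 12225 tested protein-coding genes was 4.04, and of the tested members JAG2 and MAML1 lay above it.

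**Figure D1:**
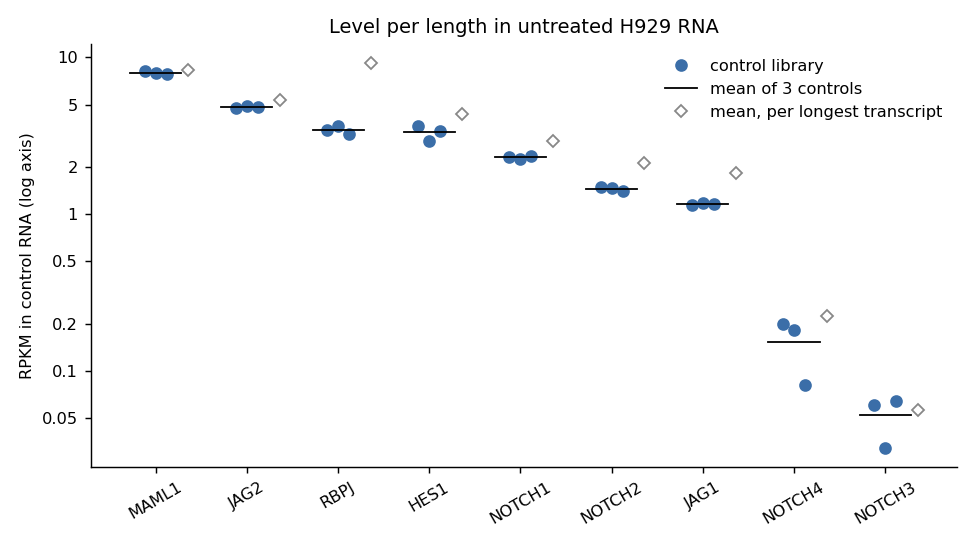
Level per length of the 9 genes in control RNA, in RPKM on a log axis. Points are the 3 control libraries, bars their mean, and open diamonds the mean per longest transcript. MAML1 stands highest at 7.99 and NOTCH3 lowest at 0.0522, and RBPJ moves to 9.18 when the longest transcript sets the length.

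NOTCH1 encodes the receptor best known from T cell leukaemia, in which it is often mutated. It lies on the minus strand at chr9:139388885-139440500 (GRCh37). Its longest annotated transcript has 9855 bases and holds 14 copies of CTGCAG, the DNA form of CUGCAG, the consensus that IRE1 recognises in the loop of a small hairpin (the motif reads the same on both strands). In the annotated canonical transcript, of 9568 bases, all 14 lie in the coding sequence, and exons are numbered in that transcript below. Local folding placed 5 of them in a hairpin loop, here a loop that spans 5 to 11 bases with 3 or more closing pairs and leaves the third motif base unpaired. These 5 are shown because the XBP1 site lies in such a loop. The motif copy in the predicted loop is in capitals, and the run of exon 25 holds another copy in lower case, for which no such loop was predicted. Each run is the transcript strand (minus for both genes), and the copy in XBP1, with a predicted loop of 7 bases, stands last for comparison.

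NOTCH1 exon 6, chr9:139413132-139413161, loop of 10 bases: gactggtgaggaCTGCAGcgagaacattga
NOTCH1 exon 7, chr9:139412603-139412632, loop of 5 bases: cacgggcccggcCTGCAGccaggacgtgga
NOTCH1 exon 16, chr9:139405663-139405692, loop of 11 bases: tgcccccagcccCTGCAGaaacggcgggga
NOTCH1 exon 25, chr9:139399938-139399967, loop of 8 bases: aaggtctgcagcCTGCAGtgcaacaaccac
NOTCH1 exon 31, chr9:139395254-139395283, loop of 6 bases: catgatcgcctcCTGCAGcgggggcggcct
XBP1, chr22:29192100-29192129: ctacgtgcacctCTGCAGcaggtgcaggcc

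Matches of this kind are common. CTGCAG occurs in the longest transcript of 88.0% of the 12225 tested protein-coding genes, at 0.786 copies per kilobase, and 38.5% of those genes hold a copy in a predicted loop. NOTCH1 has 1.42 copies per kilobase. A match describes the sequence and is not a measured cleavage site.

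The study's primer list names a NOTCH1 pair for a loop region, and its place in the gene was read from the annotation. The forward primer matched exon 32 and the reverse primer spans exons 33 and 34 of 34 in the canonical transcript, where both are coding. In the longest transcript, the annotation places both in the 3′ UTR.

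Forward primer: gctggaggacctcatcaact
Reverse primer: tctcctccctgttgttctgc

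The 158 bases between the outer ends of these primers hold 0 copies of CTGCAG and 1 copy of CNGCAG, in which N is any base, in exon 33. No hairpin loop of the kind defined above was predicted for that copy. Of windows of 158 bases tiled over the tested protein-coding transcripts, 11.1% hold CTGCAG and 23.7% hold CNGCAG. The 5 predicted loop sites of NOTCH1 above all lie upstream of this region, in exons 6 to 31.

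NOTCH1 RNA was lower after IRE1. The control libraries had 646, 631 and 651 normalized counts, and the IRE1-treated libraries had 472, 470.3 and 445. Every treated library lay below every control, and the 3 treated values stood close together. NOTCH1 fell by 0.48 on the log2 scale (SE 0.07, n = 3 per group, edgeR quasi-likelihood test with Benjamini-Hochberg adjustment over all tested genes, adjusted p = 0.000297), leaving 71.9% of the control mean. With 3 libraries against 3, the exact two-sided permutation test cannot go below 0.1, which was the value for NOTCH1. The fall passed the threshold of 0.05 with any single library left out, where the log2 fold change ran from -0.49 to -0.44. It was smaller by more than 1.5 times with the trends on transcript length and GC removed, at -0.25 (edgeR adjusted p = 0.0229, 1.29e-07 to 0.0361 over all alternatives).

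NOTCH2, a receptor with roles in B cell development, was also lower. It lies at chr1:120454176-120643366, and its longest transcript of 11425 bases holds 9 copies of CTGCAG, 1 of them in a predicted loop. The controls had 557, 546 and 526 normalized counts, and the IRE1-treated libraries had 354, 421 and 411. The groups did not overlap, and replicate 1 was the lowest treated library. NOTCH2 fell by 0.46 (log2, SE 0.08, n = 3 per group, edgeR adjusted p = 0.00118). The call ended with the trends on transcript length and GC removed, where NOTCH2 was at -0.19 (edgeR adjusted p = 0.0827, 2.78e-06 to 0.132 over all alternatives). NOTCH2 has an annotated pseudogene and close NOTCH2NL paralogs, so reads that match more than 1 copy make its counts uncertain.

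NOTCH3 and NOTCH4 were scarce. NOTCH3, a receptor of vascular smooth muscle, had raw counts of 15, 7 and 13 in the controls and 8, 3 and 7 after IRE1. It was below the count filter and was not tested. Its longest transcript holds 17 copies of CTGCAG, the most of the 9 genes, 2 of them in predicted loops. NOTCH4, a receptor of endothelium, had raw counts of 51, 41 and 17 in the controls and 35, 41 and 40 after IRE1. On the normalized scale the NOTCH4 controls were 43.1, 39.5 and 17.5 and the treated libraries 42.0, 43.3 and 38.9. The treated libraries lay near the upper control values, and control replicate 3 was the low value. The NOTCH4 log2 fold change was 0.28 (SE 0.27, edgeR adjusted p = 0.50) and was -0.0031 without control replicate 3, so at this depth no difference was detectable. NOTCH4 shares exon bases with GPSM3 on the same strand.

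**Figure D2:**
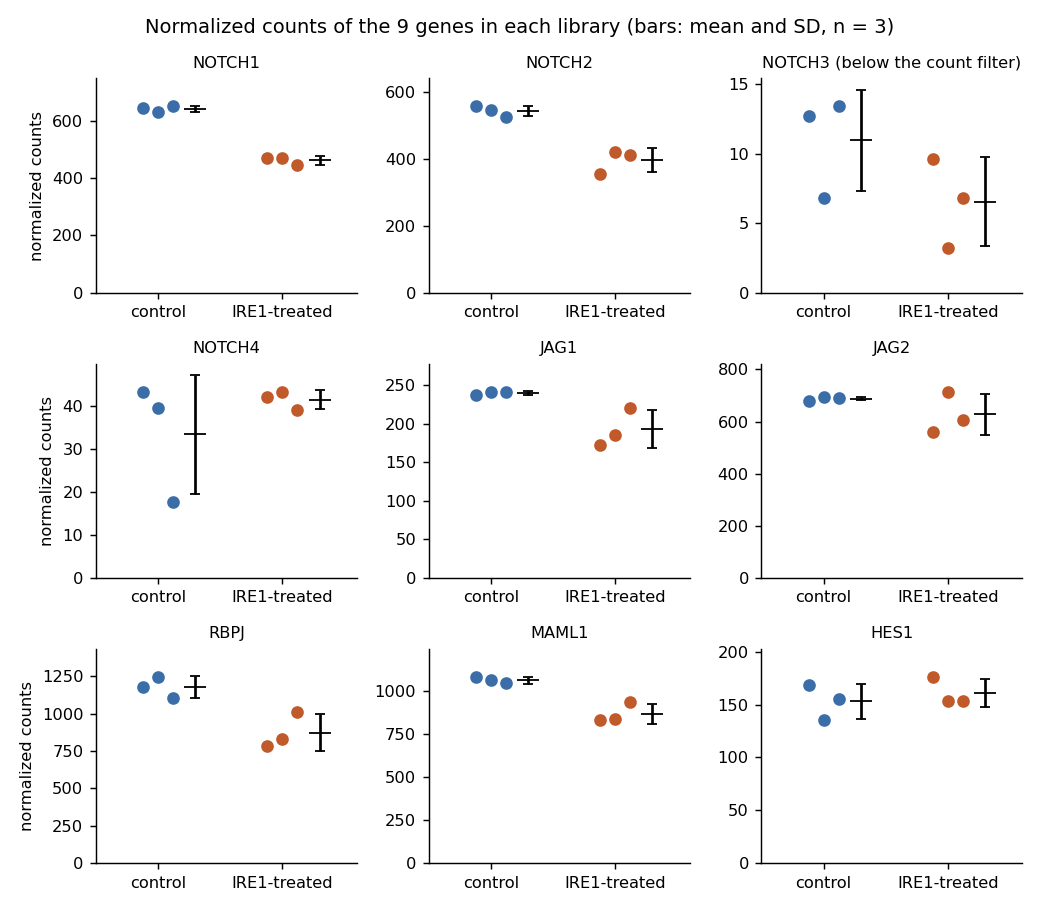
Normalized counts of each gene in the 3 control and 3 IRE1-treated libraries, with the mean and SD at the right of each group. Each panel starts at 0 and has its own scale. NOTCH1, NOTCH2, JAG1, RBPJ and MAML1 have all treated points below all control points, and the other 4 genes overlap.

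JAG1, the Jagged ligand mutated in Alagille syndrome, had 238, 242 and 241 normalized counts in the controls and 173, 186 and 220.5 in the IRE1-treated libraries. The controls were almost level, the treated libraries were spread, and replicate 3 came nearest to the controls. JAG1 fell by 0.31 (log2, SE 0.11, n = 3 per group, edgeR adjusted p = 0.0495), just under the threshold of 0.05. The call was lost when any library other than IRE1-treated replicate 3 was left out (log2 fold changes from -0.32 to -0.23, edgeR adjusted p from 0.115 to 0.153) and in DESeq2 (adjusted p = 0.0936). Over all alternatives the adjusted p of JAG1 ran from 0.00851 to 0.263. JAG1 shares 306 exon bases with an antisense RNA, and the strand setting of the counting is not given in the sources used here.

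JAG2, the Jagged ligand known to be overexpressed in malignant plasma cells, had 681, 693 and 689 normalized counts in the controls against 562, 715 and 605 after IRE1. Replicate 2 of the treated group lay above all controls and the other two below them. The log2 fold change of JAG2 was -0.13 (SE 0.08, edgeR adjusted p = 0.272, 0.0553 to 0.846 over all alternatives), and the groups overlapped. The value was -0.057 without IRE1-treated replicate 1, -0.23 without IRE1-treated replicate 2 (edgeR adjusted p = 0.0553) and -0.20 with library size scaling. The difference between JAG1 and JAG2 was not tested. Its longest transcript holds 6 copies of CTGCAG, 3 of them in predicted loops, while that of JAG1 holds 8 with 0 in loops. JAG2 shares 469 exon bases with a long noncoding RNA on the same strand.

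Both nuclear factors fell. RBPJ, the DNA-binding protein that all 4 receptors act through, had 1181, 1247 and 1105 normalized counts in the controls and 779.9, 826 and 1013 in the IRE1-treated libraries. All treated libraries lay below the controls, with replicate 3 the nearest. RBPJ fell by 0.43 (log2, SE 0.08, n = 3 per group, edgeR adjusted p = 0.00210), to 74.2% of the control mean. Its longest transcript holds 0 copies of CTGCAG, and 10 of its 51 annotated transcripts hold at least 1. The annotation names 4 RBPJ pseudogenes, so its counts share the uncertainty of near-identical copies.

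MAML1, the Mastermind-like coactivator that bridges RBPJ and histone acetyltransferases, had 1082, 1061 and 1042 normalized counts in the controls and 828, 838 and 932 after IRE1. The groups did not overlap, and replicate 3 was again the treated library nearest to the controls. MAML1 fell by 0.29 (log2, SE 0.06, n = 3 per group, edgeR adjusted p = 0.00365). Its longest transcript holds 7 copies of CTGCAG, 0 of them in a predicted loop.

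HES1, the repressor gene switched on by active NOTCH, did not pass the test. It had 168, 135 and 155 normalized counts in the controls and 176, 153 and 154 after IRE1. The groups overlapped, with a log2 fold change of 0.07 (SE 0.12, edgeR adjusted p = 0.744) that turned negative when libraries were scaled by their size alone (-0.0080) and without control replicate 2 (-0.014). HES1 has the shortest transcript of the 9 genes, 1575 bases with 1 copy of CTGCAG.

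Of the 8 tested genes, 5 were lower after IRE1 (NOTCH1, NOTCH2, JAG1, RBPJ and MAML1) and 0 were higher, beside 12.4% of all tested genes called lower and 10.3% called higher (1781 and 1489 of 14398 by edgeR, 22.7% in either direction). The share over all genes is not matched for transcript length. All 8 except HES1 lie in the 3 longest of the 10 length groups below, where 23.8% to 43.6% were called lower and 1.88% to 3.84% higher. At an unadjusted p under 0.05 there were also 0 higher, and DESeq2 and limma called 0 higher. The same 5 genes had all treated libraries below all controls, as did 20.0% of all tested genes. The median log2 fold change of the 8 was -0.30, and that of all tested genes was 0.0045. Scaling by library size moved the split over all genes to 683 higher and 2596 lower and the median to -0.07, with 5 members lower and 0 higher. The counts over all genes depended on single libraries: they were 709 higher and 972 lower without control replicate 1, 638 and 992 without control replicate 2, 947 and 1360 without control replicate 3, and 893 and 1089 without IRE1-treated replicate 2. In each of those fits 4 members were called lower.

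**Figure D3:**
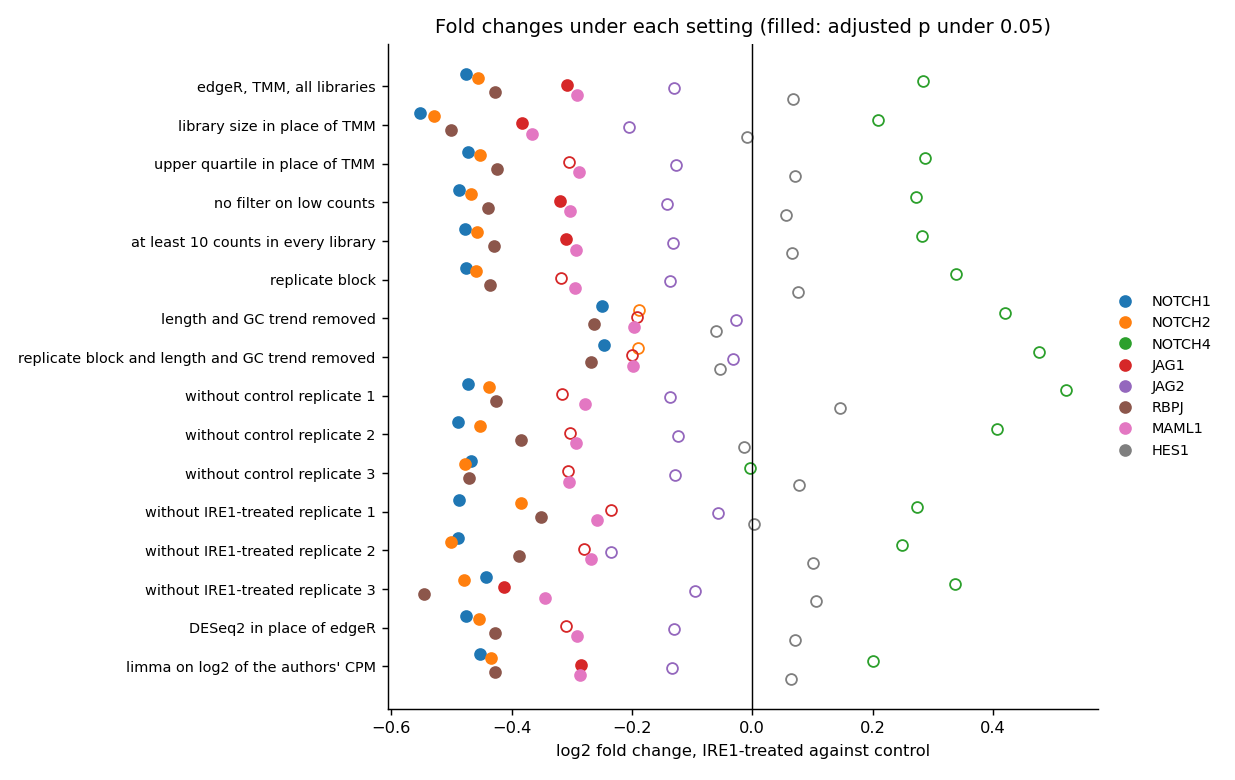
Log2 fold change of the 8 tested genes (IRE1-treated against control) under each setting, 1 row per setting. Filled points have an adjusted p under 0.05. NOTCH1, RBPJ and MAML1 are filled in every row, NOTCH2 opens where the length and GC trend is removed, and JAG1 opens in most rows that leave out a library.

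Fold changes across all genes moved with transcript length. Sorted by their longest transcript into 10 groups, the 12225 tested protein-coding genes had a median log2 fold change of 0.21 in the shortest group (median length 1235 bases) and of -0.25 in the longest (median 9971 bases), where 43.6% were called lower. NOTCH1 and NOTCH2 belong to the longest group, NOTCH4 to the second longest, with a median of -0.18, JAG1, JAG2, RBPJ and MAML1 to the third longest, with a median of -0.12, and HES1 to the shortest. The share called lower was 34.8% in the second longest group, 23.8% in the third longest and 0.163% in the shortest. The trend differed in size between the treated libraries. In the longest group the median shift from the controls was -0.32, -0.26 and -0.17 in replicates 1, 2 and 3. Of the 6 tested members with a negative log2 fold change, 3 had shifts in the same order of libraries: RBPJ (-0.59, -0.51 and -0.21), MAML1 (-0.36, -0.34 and -0.19) and JAG1 (-0.47, -0.37 and -0.12). The other 3 did not follow that order: NOTCH1 (-0.44, -0.45 and -0.53), NOTCH2 (-0.61, -0.37 and -0.40) and JAG2 (-0.29, 0.06 and -0.18).

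When the trends on transcript length and base composition were taken out, 3 members were called lower and 0 higher, beside 732 lower and 1280 higher of all 14398 tested genes. NOTCH1 was then at -0.25 (edgeR adjusted p = 0.0229), RBPJ at -0.26 (0.00788, 4.64e-09 to 0.0235 over all alternatives) and MAML1 at -0.20 (0.0274, 0.000177 to 0.0456). NOTCH2 and JAG1, both at -0.19, were no longer past the threshold (edgeR adjusted p = 0.0827 and 0.234). JAG2 was at -0.028 (edgeR adjusted p = 0.846, 0.0553 to 0.846 over all alternatives). The sizes for NOTCH1, NOTCH2, RBPJ, JAG1 and JAG2 were then smaller by more than 1.5 times than with the trend left in. HES1 turned to -0.061, and NOTCH4 was at 0.42 (edgeR adjusted p = 0.361, 0.272 to 0.994 over all alternatives).

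**Figure D4:**
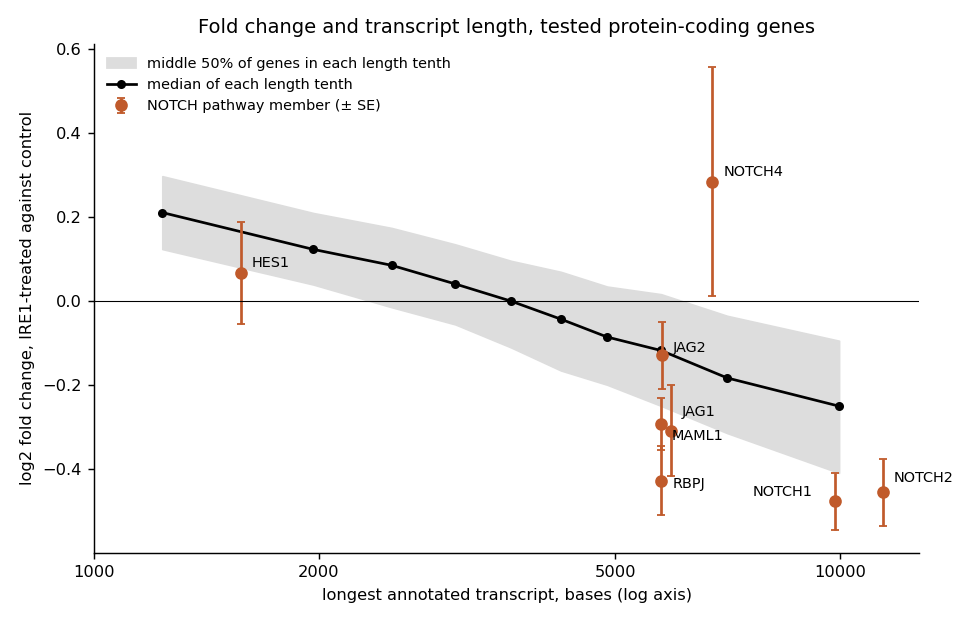
Log2 fold change (IRE1-treated against control) against the longest annotated transcript in bases, on a log axis. The line is the median and the band the middle 50% of tested protein-coding genes in each of 10 length groups, and the points are the 8 tested genes with SE. NOTCH1, RBPJ, JAG1, MAML1 and HES1 lie below the band, NOTCH2 lies past its right end at -0.46, JAG2 lies on the median line and NOTCH4 above the band.

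Known substrates of IRE1 were read in the same fit. BLOC1S1, a lysosome positioning gene cut by IRE1, had 607, 583 and 651 normalized counts in the controls and 276, 230.4 and 212 after IRE1, and it fell by 1.37 (log2, SE 0.10, n = 3 per group, edgeR adjusted p = 1.25e-06). XBP1 had 61124, 58538 and 59921 normalized counts against 57376, 56865 and 54174, with a log2 fold change of -0.09 (SE 0.04, edgeR adjusted p = 0.143) over the whole gene. The XBP1 value depended on the setting: it was -0.17 when libraries were scaled by size alone (edgeR adjusted p = 0.00371), -0.16 with the trend on length and GC removed (edgeR adjusted p = 0.0120) and -0.11, past the threshold, without IRE1-treated replicate 1, and its adjusted p ran from 0.00371 to 0.385 over all alternatives. In the trend-removed fit NOTCH1 was at -0.25 and BLOC1S1 at -1.52. The differences between these genes were not tested. The genes whose log2 CPM was most alike to NOTCH1 over the 6 libraries were ENSG00000108292 (Pearson r 0.996), RNF40 (r 0.994) and BLOC1S1 (r 0.994), as a description among 10302 genes. For NOTCH2 they included ZNF516 and PLXNA1 (r 0.998 to 0.999), for JAG1 CPT1A, PPIP5K2 and CTCF (r 0.995 to 0.998), for RBPJ KIF14, RPRD1B and FAM168A (r 0.997 to 0.998), and for MAML1 WDR7, ADAM9 and ZBED3 (r 0.998 to 0.999). These correlations run over both groups, so they largely restate the difference between groups. Each gene named as alike was itself called lower after IRE1, and whether any of them share a cause with the member was not tested.

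Of 65 other genes of the pathway, 54 were tested, and 13 were lower and 4 higher after IRE1, beside 12.4% of all tested genes lower and 10.3% higher. These shares are the background for each list that follows. Their median log2 fold change was -0.07, against 0.0045 over all tested genes. With the library size as scaling the split was 19 lower and 2 higher (2596 and 683 over all tested genes), without control replicate 2 it was 12 and 2 (992 and 638), and with the length and GC trend removed it was 5 and 3 (732 and 1280). The 5 that stayed lower there were MIB1 (-0.37), AAK1 (-0.83), EP300 (-0.33), CREBBP (-0.28) and KAT2B (-0.35).

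On the ligand side, 1 of 5 other ligands, DLL3, passed the count filter. DLL1 had 0 counts in all 6 libraries, which allows up to 3 counts per library, and DLL4, DLK1 and DLK2 had between 0 and 4.8 normalized counts. DLL3 had 42.2 to 67.2 normalized counts and a log2 fold change of 0.29 (edgeR adjusted p = 0.336). MIB1, the ubiquitin ligase that starts ligand endocytosis, fell. It had 981, 943 and 770.0 normalized counts in the controls and 477.5, 541 and 711 after IRE1, a fall by 0.63 (log2, SE 0.12, n = 3 per group, edgeR adjusted p = 0.00148). All treated libraries were below the controls, and replicate 3 was the nearest. MIB2 and NEURL1B did not pass the test, and NEURL1 had at most 3.4 normalized counts.

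Of 6 tested glycosylation and furin genes 0 passed (edgeR; 3 lower at an unadjusted p under 0.05, and 0 in DESeq2 and limma). With library size scaling 3 were called lower, named here after their values were seen: POFUT1 (-0.19), POGLUT1 (-0.28) and FURIN (-0.20). The most abundant, MFNG, a fringe glycosyltransferase, had 5701 to 6244 normalized counts, and its relative LFNG had 0 to 4.1. Both sheddases fell: ADAM10, the protease that makes the ligand-dependent cut, by 0.28 (log2, edgeR adjusted p = 0.00494), and ADAM17 by 0.28 (edgeR adjusted p = 0.0224). With the trend on length and GC removed, ADAM10 was at 0.0085 and ADAM17 at -0.09. The ADAM17 call was also lost without control replicate 1 (-0.22), control replicate 2 (-0.30) or IRE1-treated replicate 2 (-0.28), and ADAM17 shares 1645 exon bases with IAH1 on the opposite strand. Of 6 gamma-secretase genes 0 passed (edgeR; 0 lower and 1 higher at an unadjusted p under 0.05, and 0 in DESeq2 and limma). NCSTN, the substrate-docking subunit nicastrin, was the most abundant at 7491 to 7907 normalized counts.

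Among 10 tested genes of receptor trafficking and turnover, 3 fell and 0 rose (edgeR; at an unadjusted p under 0.05, 5 and 0; DESeq2 and limma, 3 and 0). AAK1, a kinase of clathrin adaptors reported to act on NUMB, had 176, 159 and 167 normalized counts in the controls and 74.4, 65.5 and 77.7 after IRE1. Its fall by 1.20 (log2, SE 0.13, n = 3 per group, edgeR adjusted p = 4.51e-05) was the largest of the tested pathway genes. ITCH, a ubiquitin ligase of NOTCH and the most abundant of the list, fell by 0.32 (edgeR adjusted p = 0.000955), and NUMB, which directs NOTCH into endocytosis, fell by 0.21 (edgeR adjusted p = 0.00983). With the trend on length and GC removed both calls ended, with ITCH at -0.12 and NUMB at -0.11. The NUMB call was also lost without control replicate 1 or IRE1-treated replicate 2 (both -0.20). ITCH shares 2901 exon bases with another annotated gene on the same strand. FBXW7 and DTX4, named after their values were seen, were also lower without IRE1-treated replicate 3 (-0.24 and -0.45), and FBXW7 with library size scaling (-0.24). DTX1 was at 0 counts in all 6 libraries.

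Of 6 tested coactivators that act with MAML1 on chromatin, 3 fell and 1 rose, beside 12.4% of all tested genes lower and 10.3% higher. The acetyltransferase EP300 had 3288, 3206 and 3010 normalized counts in the controls and 2070, 2075 and 2343 after IRE1, a fall by 0.55 (log2, SE 0.06, n = 3 per group, edgeR adjusted p = 3.8e-05). Its partner CREBBP fell by 0.52 (edgeR adjusted p = 0.000223) and KAT2B by 0.43 (edgeR adjusted p = 0.00147). SNW1, a splicing factor and NOTCH coactivator, rose by 0.16 (edgeR adjusted p = 0.0259), a call lost with library size scaling (0.08), with the length and GC trend removed (0.073), without the count filter (0.14), and when control replicate 1 (0.17), 2 (0.16) or 3 (0.15) was left out. MAML2 had 33.6 to 67.5 normalized counts and did not pass, and MAML3 had 4.2 to 6.8.

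Of 14 tested corepressors, 4 were lower and 3 higher, beside the same 12.4% and 10.3% of all tested genes. Among them, SPEN fell by 0.34 (log2, edgeR adjusted p = 0.00155), NCOR1 by 0.39 (0.000320) and TLE4 by 0.27 (0.0159). All 3 calls ended with the trend on length and GC removed, where SPEN was at -0.037, NCOR1 at -0.12 and TLE4 at -0.19. SPEN binds RBPJ in the absence of NOTCH, and NCOR1 is a scaffold for histone deacetylases. CIR1, an RBPJ-interacting corepressor, rose by 0.33 (log2, edgeR adjusted p = 0.00122), and the deacetylases HDAC1 and HDAC2 by 0.20 (0.0151) and 0.29 (0.00353). HDAC2 was at 0.56 with the length and GC trend removed. HDAC1 lost its call there (0.13), with library size scaling (0.12) and without control replicate 2 (0.15) or IRE1-treated replicate 2 (0.19), and TLE4 without control replicate 1 (-0.24). KDM5A and TLE3, named after their values were seen, were called lower with library size scaling (-0.22 and -0.20). TLE3 was also called lower without IRE1-treated replicate 1 (-0.13) and in limma. With the length and GC trend removed neither was called, with KDM5A at 0.13 and TLE3 at 0.050.

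Of 6 other tested HES and HEY genes 0 passed (edgeR; 0 also at an unadjusted p under 0.05, in DESeq2 and in limma), and their log2 fold changes ran from -0.13 to 0.02, with SE up to 0.34 (HES7). HEYL was the most abundant at 338 to 370.4 normalized counts, and HES7 the least abundant of the 6 at 9.7 to 19.0. HES3 and HES5 were at 0 counts in all 6 libraries, which allows up to 3 counts per library, and HES2 had 4.1 to 7.6 normalized counts.

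**Figure D5:**
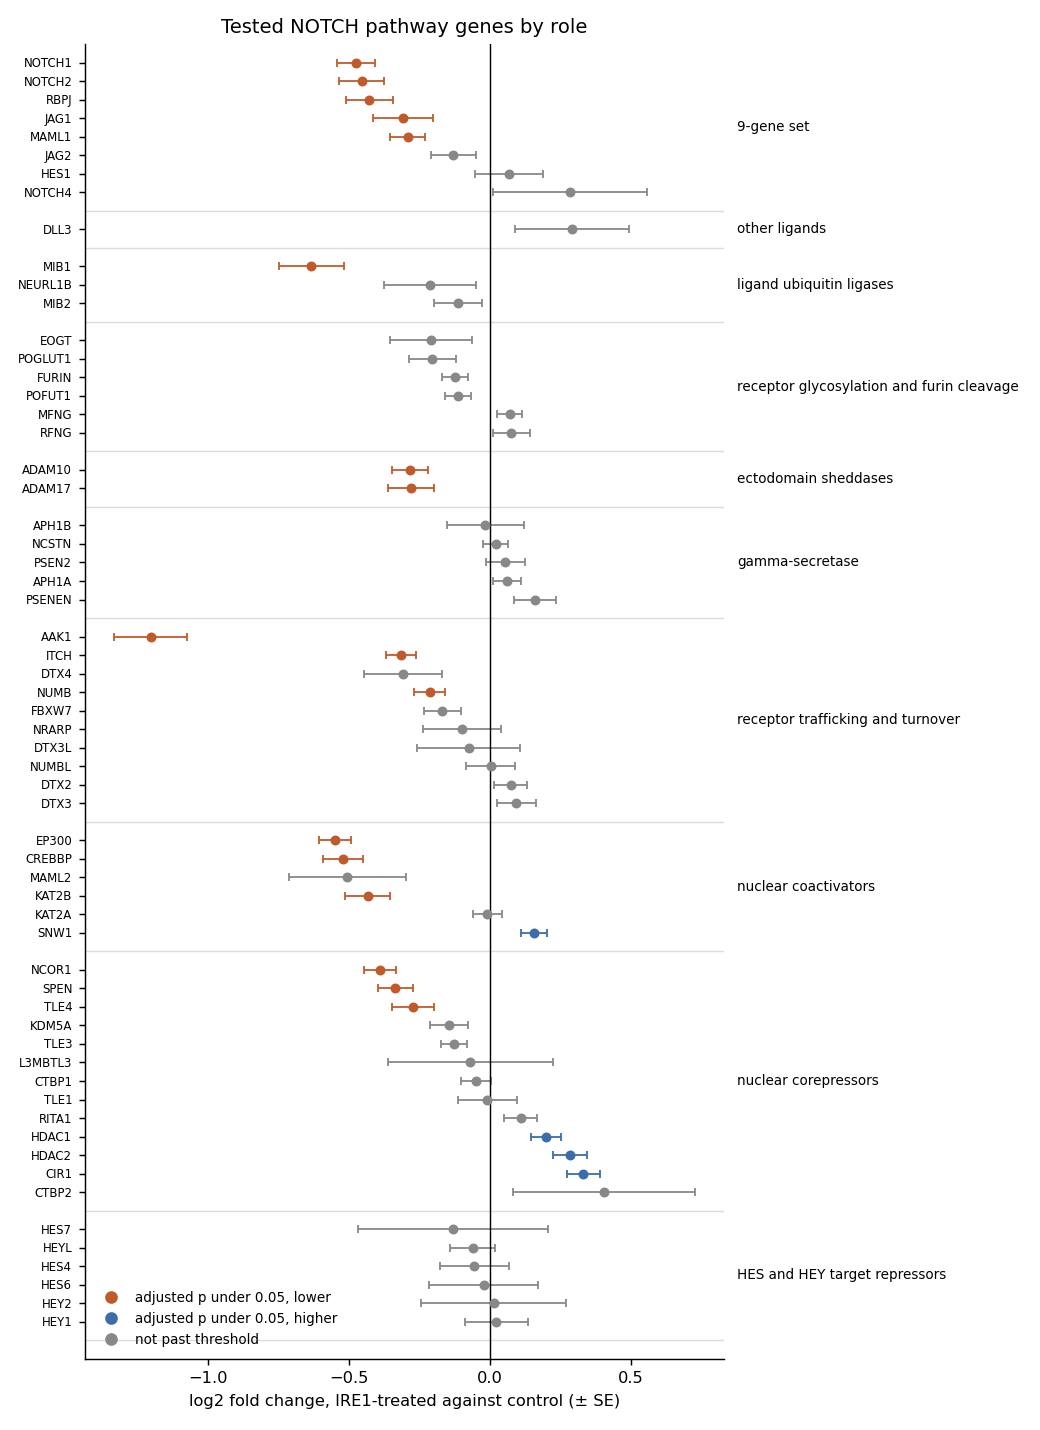
Log2 fold change (IRE1-treated against control) with SE for the 8 tested members of the 9-gene set and 52 of the 54 other tested pathway genes, grouped by role. Orange points fell and blue points rose at an adjusted p under 0.05. AAK1 lies farthest to the left at -1.20, the gamma-secretase and HES/HEY groups hold grey points only, and the corepressors hold both colours.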

How the data were processed

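RNA of 6 H929 reactions, 3 per group, was sequenced. The authors used Cutadapt 1.12 for trimming and STAR 2.5.3a for alignment (GRCh37, Ensembl release 87), per their methods and processing notes, and deposited raw counts per gene from HTSeq 0.6.1p1. The strand and overlap settings are not given in the sources used here. Lines that name no gene took 21.4% to 23.2% of each file and were left out. The authors also deposited CPM from edgeR 3.24.3 for more expressed genes, used in 1 alternative with a pseudocount of 1.

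GENCODE release 44 (lifted to GRCh37) gave symbols, transcript lengths and sequence. Counts were tested with edgeR 4.0.16 (R 4.3.3; filterByExpr, TMM, quasi-likelihood, Benjamini-Hochberg over 14398 genes, threshold 0.05, no covariate), checked on simulated data. DESeq2 1.42.0 and limma 3.58.1 were alternatives. RPKM used the union of annotated exons and TMM library sizes. Motif windows of 15 bases on either side were folded with ViennaRNA 2.7.2.

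The members and gene lists were chosen with earlier results of these data known. Text names all 9 members, other pathway genes past the threshold with at least 100 normalized counts on average, the most abundant gene per list, genes below the filter, and per called member the 3 genes most correlated in log2 CPM (prior count 2). PECAM1 and TRAC were not analysed here, and a few genes that this rule would name are not reported here. The p-values measure the spread between these libraries only, and floors cover counting error only.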

Additional observations from a re-analysis of the deposited data

How the results depend on the processing

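NOTCH1, RBPJ and MAML1 kept their direction and stayed past the threshold under all 15 alternatives tried. With the length and GC trend removed, 732 genes were called lower and 1280 higher, of the lower 3 members and 5 other pathway genes; NOTCH2 was at -0.19, JAG1 at -0.19, JAG2 at -0.028, NOTCH4 at 0.42, HES1 at -0.061 and ADAM10 at 0.0085. With a replicate block as well, 606 genes were lower and 1095 higher, of the lower again 3 members and 5 other pathway genes, and NOTCH2 was at -0.19, JAG1 at -0.20, NOTCH4 at 0.48, HES1 at -0.054 and ADAM10 at 0.0096. JAG1 also missed the threshold with upper quartile scaling (-0.30), with the replicate block alone (-0.32) and in DESeq2 (-0.31). Scaling by library size gave 683 genes higher, 2 of them other pathway genes, and HES1 at -0.0080. DESeq2 gave no adjusted p for NOTCH4. The causes of these changes were not tested.

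The replicate block alone gave 1117 higher and 1496 lower. SNW1 was not called with it (0.16), nor with the block and the trend removal together (0.073). Same-numbered libraries did not deviate together (r -0.04, -0.00505 and -0.11), and 0 of 6 libraries correlated best with their own number, so the numbers were not taken to pair the samples.

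Leaving out 1 library at a time gave 972 to 2221 genes lower and 638 to 2091 higher, 4 to 5 members lower, 2 to 4 other pathway genes higher, and log2 fold changes from -0.0031 to 0.52 for NOTCH4, from -0.41 to -0.23 for JAG1, from -0.23 to -0.057 for JAG2 and from -0.014 to 0.15 for HES1. Each such fit has fewer samples.

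Per longest transcript the control levels were 2.93 RPKM for NOTCH1, 2.13 for NOTCH2, 0.222 for NOTCH4, 1.82 for JAG1, 5.35 for JAG2, 9.18 for RBPJ, 8.29 for MAML1 and 4.36 for HES1, with NOTCH3 moving by less than 1 SD. By library size they were 2.36 for NOTCH1, 1.19 for JAG1, 4.95 for JAG2 and 8.20 for MAML1, other members moving by less than 1 SD. In the longest transcript 8 of the 9 members had a CTGCAG copy, all but RBPJ, and in any annotated transcript 9 had one. Counting only copies in a predicted loop, a rule chosen after seeing the data, left 5: NOTCH1, NOTCH2, NOTCH3 (not tested), NOTCH4 and JAG2. Over all tested protein-coding genes that share was 38.5%. For the 17 other pathway genes past the threshold with at least 100 normalized counts on average, 220 of 255 values kept their side of the threshold and 253 their direction. NOTCH3 had at most 15 raw counts in a library, and the NOTCH4 value rested on control replicate 3, with 17 raw counts against 51 and 41 in the other controls.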
